A study of Homo sapiens with 38 samples.

Results

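The genes of deoxynucleotide (dNTP) supply were followed through RNA-seq of 3 established human breast cancer cell lines: RRM1, RRM2, RRM2B, TK1, TYMS, DUT, DTYMK, DCK and SAMHD1. They were chosen by symbol, as enzymes that make or break down deoxynucleotides, and all 9 were listed in each of the 15 deposited tables, the largest of which held 18573 genes. The study asked how degraders directed at the histone methyltransferase EZH2 change transcription in breast cancer cells. For 48 h, cells of T47D, T47D-TR (the labels do not explain TR) and BT-549 were kept in 0.125% DMSO or in 2.5 uM of 1 of 4 compounds: the degrader MS177, the negative controls MS177-N2 and MS177-N1, and C24, an inhibitor of the EZH2 methyltransferase. For 30 h, T47D-TR was kept in 0.05% DMSO or in 2.5 uM of the degrader MS8815, the negative control MS8815-N or the EZH2 inhibitor EPZ-6438. The labels give no transgene, deletion or second agent in any group and do not say whether a line was kept as 1 clone. They place 38 samples in 19 groups of 2, and 37 libraries had a column of their own. The labels do not say whether the 2 samples of a group were separate cultures, so p-values measure the spread between these samples, which may be technical.

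A dividing cell needs the 4 dNTPs in balance. Ribonucleotide reductase makes them from ribonucleotides: RRM1 is its large, catalytic subunit, RRM2 the small subunit of dividing cells, which rises in S phase, and RRM2B a small subunit that p53 induces and that also serves resting cells and DNA repair. Thymidylate has its own branch. TYMS methylates dUMP to dTMP, DUT removes dUTP and so provides dUMP and keeps uracil out of DNA, TK1 recovers thymidine in S phase, and DTYMK phosphorylates dTMP to dTDP. DCK recovers deoxycytidine and the purine deoxynucleosides, and SAMHD1 takes the opposite direction, cutting dNTPs back to deoxynucleosides. Many of the S phase members are textbook targets of E2F factors.

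Since most of the members moved together in 1 comparison, the 250 bases before each start site were searched on both strands for 3 motifs of cell-cycle promoters: an E2F-type motif (TTCCCGC as well as TTCGCGC and also TTGCCGC or else TTGGCGC), the CHR element (TTTGAA as well as TTCGAA) and CCAAT. On its other strand TTGGCGC can share letters with CCAAT. The promoter windows came from RefSeq on GRCh38.p14 and matched 8 of the 9 members, in 13 windows. An E2F-type match was found in 6 of the 13 windows, in 6 members (10.9% of 35116 windows of that length hold one). CHR was found in 3 of the 13 windows, in 3 members (14.3% of windows), and CCAAT in 6, in 5 members (32% of windows). The first start site of RRM2 had 3 CCAAT matches in a row, which 2.93% of windows reach. Of 23 matches in all, the stretches below show 1 for each gene with a window and a match, and the row of 3 for RRM2, picked as examples; the other matches of RRM1, RRM2, TK1, DUT, DTYMK, DCK and SAMHD1 are not shown. They are printed with the motif in capitals, each read 5′ to 3′ on the strand of its gene. A match is a description of letters and no evidence that a factor binds there.
RRM2, first of 3 CCAAT, chr2:10122604-10122633, plus strand: ggcaaggcgcagCCAATgggaagggtcgga
RRM2, second CCAAT, chr2:10122634-10122663, plus strand: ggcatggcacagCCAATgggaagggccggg
RRM2, last CCAAT, chr2:10122661-10122690, plus strand: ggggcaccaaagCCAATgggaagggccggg
RRM1, E2F-type, chr11:4094451-4094480, plus strand: caagaaaaacgTTCCCGCcggttaggtttt
TK1, E2F-type on the other strand, chr17:78187053-78187082, minus strand: tggtttaaagcggtcggcGCGGGAAccagg
TYMS, E2F-type on the other strand, chr18:657603-657632, plus strand: gcgggacggccGCGGGAAaaggcgcgcgga
DUT, E2F-type on the other strand, chr15:48332144-48332173, plus strand: gggcggggctgGCGGGAAatttcggttttg
DCK, E2F-type on the other strand, chr4:70993550-70993579, plus strand: ggagcgcgcacGCGGGAAcccgcgctggag
DTYMK, CHR, chr2:241686882-241686911, minus strand: ccggccaatcccTTCGAAtttggccgaggc
SAMHD1, CCAAT, chr20:36951740-36951769, minus strand: ctgcgcaggaggCCAATaggctgccaatac
SAMHD1 had no E2F-type and no CHR match in its window.

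The RNA was polyadenylated, and values are normalized counts, recovered from the log2 scale that the authors deposited. They were, in the tables of BT-549 and T47D, whole multiples of 1 read, which gave 32.1 to 49.9 M reads per library. In those of T47D-TR they were not, so the depth of those libraries is unknown. All 10 luminal markers were listed in T47D and T47D-TR. BT-549 listed 7 of them in all its tables, 5 over 100 normalized counts with DMSO, but not ESR1, SPDEF or TFF1. It had all 10 mesenchymal markers over 100 normalized counts. Of 6 leukocyte markers, all tables of T47D listed 3 and the 48 h tables of T47D-TR 2, with 0 over 100 with DMSO. BT-549 listed 3, with 1 over 100, and they summed to 191 to 208 with DMSO and 372 to 401 with MS177. PTPRC and CD3E were not among those listed in any line. RNA of EZH2, the target of the compounds, had log2 differences between MS177 and DMSO of 0.24 in T47D, 0.54 in T47D-TR and 0.32 in BT-549. That of FOXM1, the other gene in the title of the series, fell by 2.64 in T47D-TR. Some libraries stood apart. The 2 MS177 libraries of T47D correlated at 0.866 over genes, against 0.992 for their DMSO pair, and differed in how long and short transcripts compared (long minus short, relative to DMSO, -1.17 and 0.40 on the log2 scale). The MS8815 pair correlated at 0.891 and the EPZ-6438 pair at 0.902, against 0.987 and 0.986 for DMSO in their tables, and EPZ-6438 replicate 2 had a length trend of -0.81. MS8815-N replicate 2 listed 334 of 5803 genes at 0 that had at least 100 normalized counts with DMSO, and correlated at 0.571 with its partner. T47D MS177-N1 was left with 1 library, since its second column carries the name and, at 100% of 17724 genes, the values of MS177-N2 replicate 2.

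Levels with DMSO were first set in order per kilobase of transcript, which allows genes to be compared. In T47D, TK1 was highest at 6014 to 6371 normalized counts per kb in the 2 libraries. RRM2 (1930 to 1992) overlapped with DUT (1649 to 1978), DUT with RRM1 (1765 to 1793) and TYMS (1689 to 1805), and DTYMK (1490 to 1761) with DUT and TYMS, while RRM1 lay above DTYMK and under RRM2. SAMHD1 (401 to 439) and RRM2B (391 to 424) overlapped as well, and DCK was lowest at 274 to 302. In T47D-TR the order began with TK1 (1804 to 2394), RRM2 (1552 to 1561) and RRM1 (1144 to 1161) and ended with SAMHD1 (24.7 to 34.1), which stood well under RRM2B (250.3 to 262). BT-549 had TYMS (5599 to 6391) and DTYMK (4702 to 5892) at the top with overlapping ranges, then TK1 (3606 to 4021) and RRM2 (3055 to 3146), and RRM2B and SAMHD1 overlapped at the bottom (347 to 401 and 348 to 395). In all 3 lines RRM2 was thus the main small subunit with DMSO, at several times the RRM2B level. Lines were normalized in separate tables, so levels were not tested between them. In the T47D-TR tables the authors' scaling also differed from gene to gene. The order given there is that of the values listed in 1 table, and the part of the scaling in it is unknown.

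MS177 in T47D-TR raised 1 and lowered 7 of the 8 members that had values in all 4 libraries, where 54.6% of 14555 tested genes were called (27.6% higher and 26.9% lower). The median difference of the 8 was -2.06 on the log2 scale, beside 0.00 for all genes. SAMHD1, the ninth, was listed at 0 with MS177 and is given by its values. RRM2, the S phase small subunit, had 5699 and 5735 normalized counts with DMSO and 211.2 and 243.5 with MS177, so 3.98% of its mean level was left (log2 difference -4.65 ± 0.12 SE, limma adjusted p = 1.62e-05, n = 2 libraries per group). RRM1, the catalytic subunit, went from 3518 and 3571 to 379.8 and 412.1 (-3.16 ± 0.11, limma adjusted p = 2.22e-05). Both partners of the S phase enzyme were therefore far under the DMSO range in both MS177 libraries, and the small subunit had fallen further. RRM2B moved the other way, from 1234 and 1293 to 4806 and 4580 normalized counts, 3.71-fold higher (1.89 ± 0.10, limma adjusted p = 5.13e-05). Per kilobase, RRM2B stood at 0.161 and 0.168 of RRM2 in the DMSO libraries and at 16.9 and 14 times RRM2 in the MS177 libraries. The RRM2B transcript thus exceeded that of RRM2 in both MS177 libraries, in contrast to both DMSO libraries. That ratio in the same DMSO libraries ran from 0.161 to 0.206 over the 4 tables that hold them.

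The thymidylate enzymes of T47D-TR fell to different extents with MS177. TK1, the S phase thymidine kinase, had 4024 and 3033 normalized counts with DMSO and 274.8 and 280.8 with MS177 (-3.65 ± 0.16, limma adjusted p = 2.86e-05). TYMS, thymidylate synthase, went from 1018 and 866.8 to 192.7 and 216.3 (-2.20 ± 0.15, limma adjusted p = 0.000117). DTYMK, the next kinase, went from 696.9 and 489.6 to 196.9 and 225.1 (-1.47 ± 0.20, limma adjusted p = 0.00143). In each case the higher MS177 library lay under the lower DMSO library, and 7.87% of TK1, 21.7% of TYMS and 35.6% of DTYMK was left. DUT, the dUTPase, fell least, from 1454 and 1166 to 508.1 and 598.5 (-1.24 ± 0.16, limma adjusted p = 0.00103). DCK, the salvage kinase for deoxycytidine, went from 829.4 and 680.7 to 201.9 and 192.9 (-1.92 ± 0.16, limma adjusted p = 0.000204). SAMHD1, the enzyme that degrades dNTPs, had 180.8 and 130.6 normalized counts with DMSO and was listed at 0 in both MS177 libraries. No fold and no test are given for it, since these tables hold no reads and it passed the filter on low values through the DMSO libraries alone. The other 8 stayed called with any 1 library left out. Of the 10 luminal markers 2 were higher and 6 lower with MS177, with summed levels of 254330 to 260068 normalized counts against 247190 to 288176 with DMSO. The mesenchymal markers summed to 950 to 1193 against 638 to 663, with ZEB1 and ZEB2 not listed. The part of these shifts in the results was not tested. In bulk RNA, fewer cells of a cell-cycle phase and less RNA per cell cannot be told apart.

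**Figure D1:**
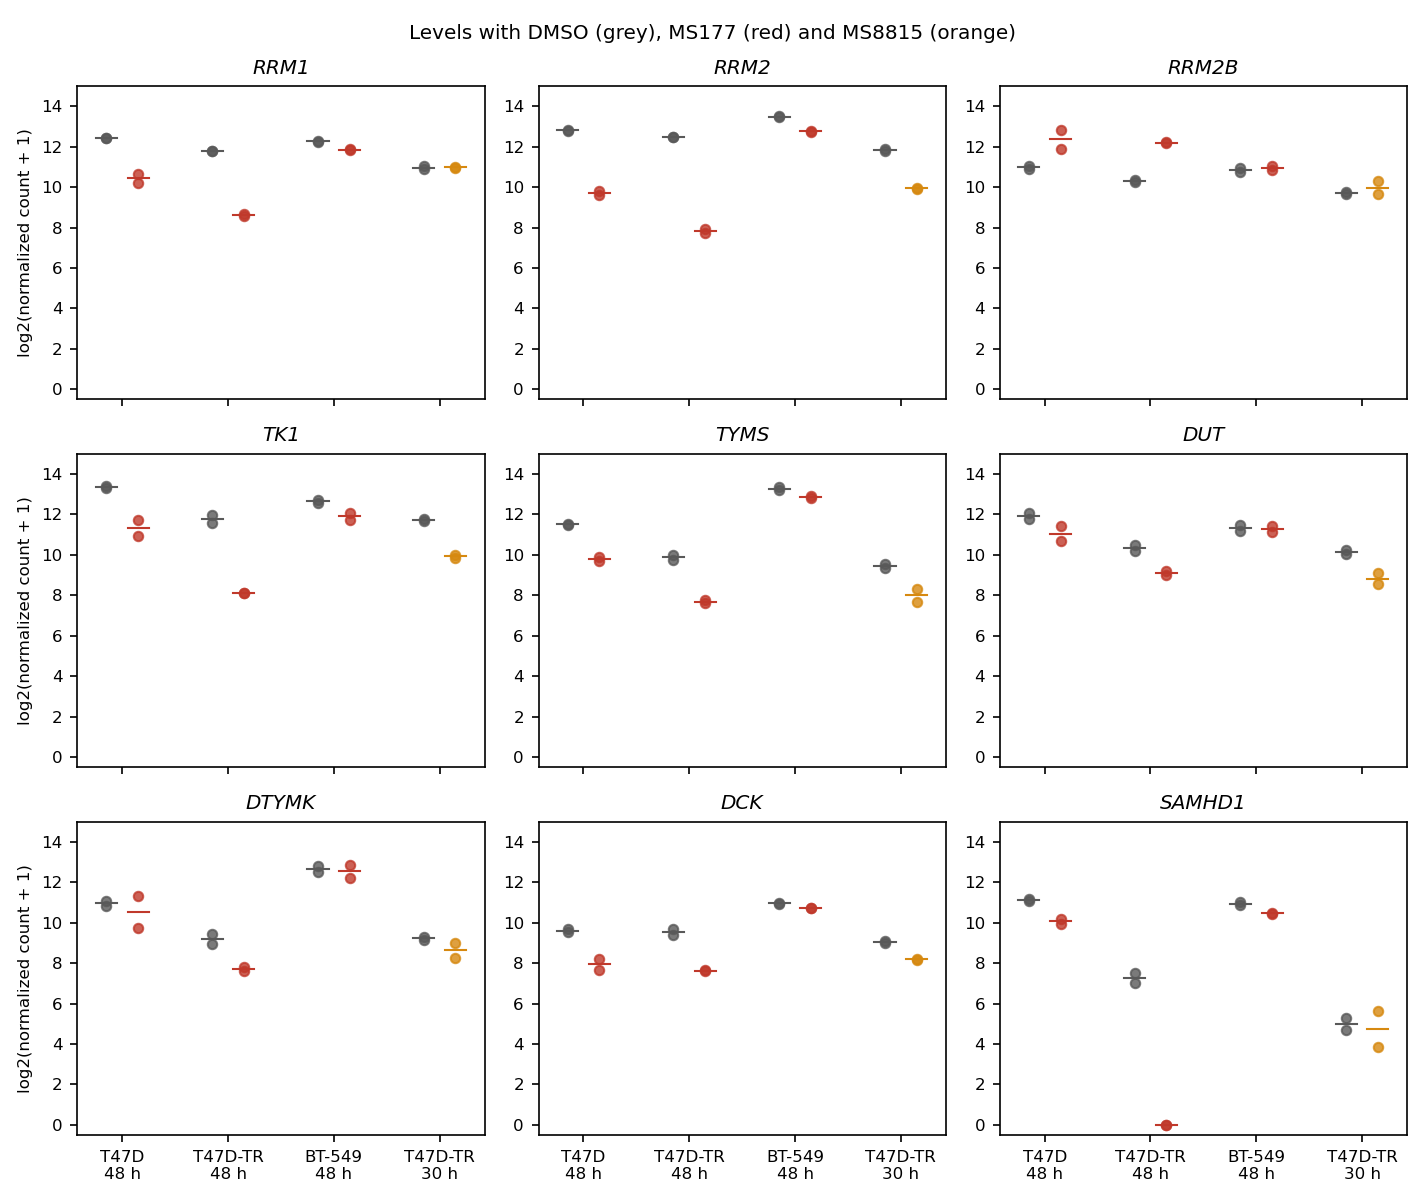
Normalized counts of the 9 members on a log2(count + 1) axis, 1 point per library and a line at each mean, with DMSO in grey, MS177 in red (48 h, 3 lines) and MS8815 in orange (30 h, T47D-TR). With MS177 in T47D-TR, 8 members sit under DMSO, SAMHD1 at 0 and RRM2B above DMSO, while the BT-549 points lie close to their controls.

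In T47D, the members had lower or higher values with MS177 in the same pattern, but no gene of the table passed the test: 0% of 17370 genes and 0 of 9 members were called, at an unadjusted p under 0.05 the counts were 3163 genes and 7 members, and limma voom on the recovered reads called 0 as well. RRM2 had 7317 and 7089 normalized counts with DMSO and 768.9 and 887.6 with MS177 (log2 difference -3.12 ± 0.26, limma adjusted p = 0.117). RRM1 had 5429 and 5516 against 1198 and 1617 (-1.97 ± 0.29, limma adjusted p = 0.13). RRM2B had 1926 and 2090 against 3814 and 7252 (1.39 ± 0.40, limma adjusted p = 0.214). Per kilobase RRM2B went from 0.196 and 0.22 of RRM2 to 3.69 and 6.09 times RRM2. TK1 had 10109 and 10710 normalized counts against 3395 and 1936, TYMS 2807 and 3000 against 962.2 and 822.2, and DCK 743.3 and 820.7 against 201.6 and 296.5 (log2 differences of -2.02, -1.70 and -1.67). SAMHD1, which T47D expresses at a level far from 0, had 2327 and 2122 against 971.6 and 1174 (-1.06 ± 0.27, limma adjusted p = 0.184). DUT had 3541 and 4247 against 2736 and 1644. The MS177 libraries of DTYMK, 2536 and 845.4, lay on either side of DMSO at 1835 and 2170. With 2 libraries a group, unchanged genes can also have separate ranges, so separation is not counted here. The median of the 9 was -1.67, beside 0.00 for all genes. The spread between the MS177 libraries set these p-values: with all T47D libraries sharing 1 estimate of the spread, 7 of the 9 were called, and with the trend of transcript length removed, 5 of the 9. The share of all genes called in these settings is not given here, so the counts are no result about the members. DTYMK changed sign between the MS177 libraries, at -1.24 without replicate 1 and 0.35 without replicate 2.

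In BT-549 the MS177 differences were small. The test called 4 of 9 members lower and 0 higher, where 24% of 16336 genes were called (12.6% lower and 11.5% higher). RRM2 had 11220 and 11553 normalized counts with DMSO and 7111 and 6879 with MS177 (-0.70 ± 0.11, limma adjusted p = 0.0116), so 61.4% was left. TK1 had 6760 and 6061 against 3440 and 4375 (-0.72 ± 0.16, limma adjusted p = 0.0285). RRM1 had 4963 and 4827 against 3643 and 3752 (-0.40 ± 0.11, limma adjusted p = 0.0456). SAMHD1 had 1845 and 2095 against 1417 and 1394 (-0.48 ± 0.12, limma adjusted p = 0.0421). In these 4 genes every MS177 library lay under every DMSO library, which unchanged genes can also show with 2 libraries a group. TYMS had 10622 and 9305 against 7106 and 7644 and missed the threshold (-0.43 ± 0.12, limma adjusted p = 0.0606). RRM2B overlapped (1713 and 1979 against 2119 and 1847; difference 0.10, 95% confidence interval -0.25 to 0.45), as did DUT (-0.03, interval -0.44 to 0.39) and DTYMK (-0.13, interval -0.75 to 0.49), and DCK differed by -0.22 (interval -0.49 to 0.06). The p53-inducible subunit thus showed no detectable difference in this line, and RRM2B per kilobase was 0.114 and 0.128 of RRM2 with DMSO and 0.222 and 0.200 with MS177. The luminal markers listed summed to 37324 to 43896 with MS177 against 27114 to 29809 with DMSO, and the mesenchymal markers to 142128 to 157057 against 163049 to 165101; the part of this in the results was not tested. RRM2 was the member that stayed called with any 1 library left out. RRM1 was lost without any of the 4 libraries, TK1 without DMSO replicate 1 (adjusted p = 0.0653), and SAMHD1 without DMSO replicate 1 or 2 or MS177 replicate 2 (limma adjusted p = 0.105, 0.297 and 0.0661).

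Whether the MS177 response itself differed between lines was tested as an interaction over 12265 genes. Between T47D-TR and BT-549, 8 of 9 members differed, SAMHD1 on values of 0 (24.8% of genes were called), and DTYMK missed the threshold (-1.34, limma adjusted p = 0.0825). The response of RRM2 in T47D-TR minus that in BT-549 was -3.95 ± 0.17 on the log2 scale (limma adjusted p = 4.04e-11), that of RRM1 -2.76, that of TK1 -2.93 and that of RRM2B 1.79, so the falls and the rise were larger in T47D-TR. Between T47D and BT-549, 6 of 9 differed (13.9% of genes), led by RRM2 (-2.42 ± 0.17, limma adjusted p = 5.63e-08). Between T47D-TR and T47D, 4 of 9 differed (11.7% of genes): RRM2 (-1.53 ± 0.17, limma adjusted p = 2.02e-05), RRM1, TK1 and SAMHD1, the last resting on values of 0. RRM2B did not pass there (0.50, 95% confidence interval -0.13 to 1.13). These fits share 1 spread over all 48 h libraries. With only the DMSO and MS177 libraries of the 2 lines, the calls between T47D-TR and T47D fell to 1 of 9 and those between T47D and BT-549 to 2 of 9.

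**Figure D2:**
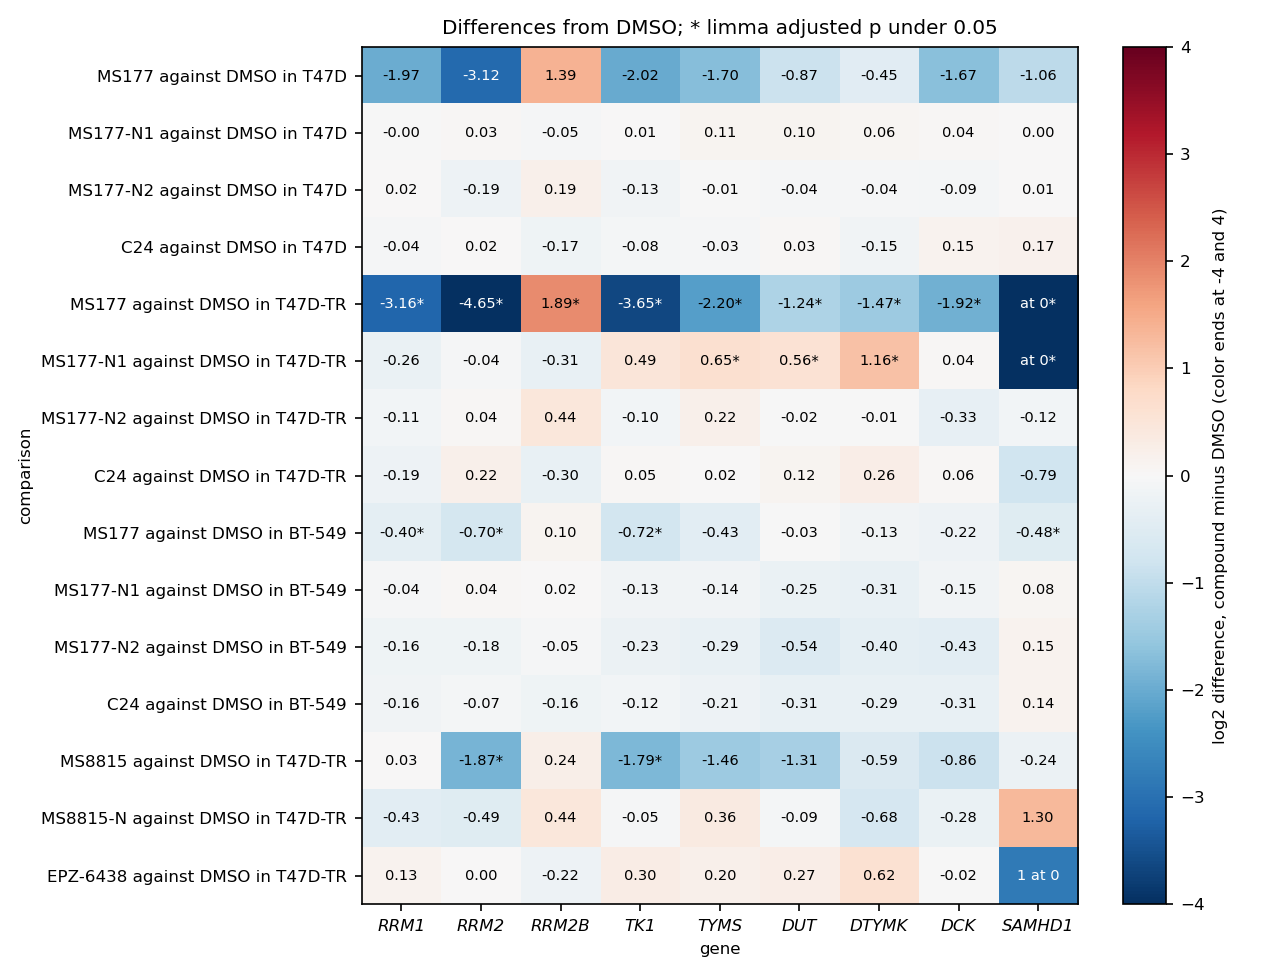
Log2 difference from DMSO of each member (columns) in each of the 15 comparisons (rows); colours end at -4 and 4, a star marks a limma adjusted p under 0.05, and cells with a library listed at 0 carry that note in place of a number. SAMHD1 aside, the MS177 rows of T47D and T47D-TR and the MS8815 row hold most of the colour. The value farthest from 0 with MS177 in BT-549 is -0.72 (TK1), while DTYMK stands at 1.16 with MS177-N1 in T47D-TR and at -0.68 with MS8815-N. In the rows of C24, MS177-N2 and EPZ-6438, SAMHD1 aside, the value farthest from 0 is 0.62, for DTYMK with EPZ-6438.

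Few members were called with the inhibitors and the control compounds. In 11 of the 15 comparisons with DMSO, among them MS177 in T47D, limma called no member. With C24, 0 of 9 were called in T47D (0.574% of genes called), in T47D-TR (0.014%) and in BT-549 (0.165%). An unadjusted p under 0.05 was reached by 2 members and 2124 of 17256 genes in T47D. In T47D-TR it was 0 members and 273 of 14249 genes, and in BT-549 0 members and 1854 of 16358 genes. RRM2 with C24 differed from DMSO by 0.02 in T47D (95% confidence interval -0.13 to 0.17), by 0.22 in T47D-TR (-0.21 to 0.64) and by -0.07 in BT-549 (-0.37 to 0.23). Line by line, the RRM2 interval of MS177 against DMSO lay far under that of C24 for T47D-TR (-4.94 to -4.36). It also did so for T47D (-3.81 to -2.43), where MS177 did not pass the test. For BT-549 the MS177 interval, -0.97 to -0.43, lay close under that of C24. With MS177-N2, 0 of 9 were called in T47D (0% of genes), T47D-TR (0.111%) and BT-549 (2.12%). An unadjusted p under 0.05 was reached by 2 members and 951 of 17178 genes in T47D. In T47D-TR it was 1 member and 832 of 14350 genes, and in BT-549 3 members and 3284 of 16105 genes. With MS177-N1, 0 of 9 were called in BT-549 (0%), with 0 members and 395 of 16154 genes at an unadjusted p under 0.05. MS177-N1 in T47D had 1 library (n = 1 against 2 DMSO libraries), assumed to vary like DMSO, and 0 of 9 were called (0.0651% of genes; 0 members), which says little about this compound. Limma voom called no member in the T47D and BT-549 comparisons of these compounds either. The RRM2 values of MS177-N2 in T47D, 7009 and 6954 normalized counts, lay under DMSO at 8123 and 7810 (-0.19, limma adjusted p = 0.77). With EPZ-6438, 0 of 9 were called at 30 h (0% of genes; 0 members), with RRM2 at 4401 and 4265 against 4440 and 4216. With MS8815-N, 0 of 9 were called (0% of genes; 0 members), and all genes together had a median of -0.24 there.

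MS177-N1 in T47D-TR was the exception among the control compounds, with 3 members higher of the 8 that had values in all 4 libraries and 0 lower, where 17.3% of genes were called (9.92% higher and 7.39% lower). DTYMK had 621.2 and 432.6 normalized counts with DMSO and 1069 and 1260 with MS177-N1 (1.16 ± 0.20, limma adjusted p = 0.0113). TYMS had 868.7 and 733.3 against 1191 and 1320 (0.65 ± 0.16, limma adjusted p = 0.0239), and DUT 1349 and 1072 against 1753 and 1805 (0.56 ± 0.16, limma adjusted p = 0.0369). These 3 thymidylate genes have short transcripts (1232, 1662 and 2147 nt), and in both MS177-N1 libraries short transcripts were high as a class (long minus short, -0.62 and -0.81). With that trend removed, TYMS and DUT were no longer called (limma adjusted p = 0.116 and 0.0834) and DTYMK was. Without DMSO replicate 2, or without MS177-N1 replicate 2, none of the 3 was called. RRM2 had 4292 and 4281 against 4088 and 4229 and did not pass (-0.04, 95% confidence interval -0.35 to 0.26). SAMHD1 had 158.7 and 113.6 normalized counts with DMSO and was listed at 0 in both MS177-N1 libraries, and no test is given for it.

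MS177 was also set directly against the other compounds at the same dose and time, in fits of all libraries of a line. In T47D-TR it left 7 members lower and 1 higher than MS177-N1 (50.7% of genes called, 26.8% lower and 23.9% higher), 7 lower and 1 higher than MS177-N2 (46.3%, 24.5% lower and 21.8% higher), and 7 lower and 1 higher than C24 (48.1%, 25.7% lower and 22.3% higher), SAMHD1 left aside. The RRM2 differences were -4.61 ± 0.14, -4.69 ± 0.14 and -4.87 ± 0.14 (largest limma adjusted p = 3.6e-07). RRM2B was higher than with MS177-N1 by 2.20, with MS177-N2 by 1.45 and with C24 by 2.20. The gap to MS177-N2 was the smallest of the 3, and RRM2B with MS177-N2 had 1845 and 1992 normalized counts against 1376 and 1454 with DMSO, a difference that did not pass the test (0.44, limma adjusted p = 0.514). In BT-549 MS177 left RRM1, RRM2, TK1 and SAMHD1 lower than MS177-N1 (4 of 9; 33.1% of genes called, 17.7% lower and 15.4% higher). Against MS177-N2 it left RRM2, TK1 and SAMHD1 lower and DUT higher (4 of 9; 37.2%, 19.4% lower and 17.8% higher), and against C24 RRM2, TK1 and SAMHD1 lower (3 of 9; 35.7%, 18.9% lower and 16.8% higher). These BT-549 calls depend on the fit. With only the groups compared, RRM1, TK1 and SAMHD1 were no longer called against MS177-N1 (limma adjusted p = 0.0873, 0.0665 and 0.0533), RRM1 was lost without any of the 4 libraries of the pair, and DUT against MS177-N2 was lost without the mean trend (0.0806), with quantile normalization (0.0737), and without MS177 replicate 2 or either MS177-N2 library. TK1 was lost against each of the 3 compounds without MS177 replicate 1 (0.108, 0.201 and 0.101). In T47D 6 of 9 were called lower against the 1 library of MS177-N1, which was assumed to vary like the other groups (8.56% of genes, 5% lower and 3.56% higher). Against MS177-N2 6 were lower and RRM2B higher (16.7% of genes, 9.09% lower and 7.59% higher), and likewise against C24 (19.3%, 11% lower and 8.29% higher). RRM2 differed from the 3 compounds by -3.16 ± 0.18, -2.93 ± 0.14 and -3.14 ± 0.14. The T47D calls rest on the shared spread: with only the groups compared in the fit, 0 of 9 were called against each of the 3. Leaving out either MS177-N2 library, or either C24 library, left 1 of 9 called against that compound.

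**Figure D3:**
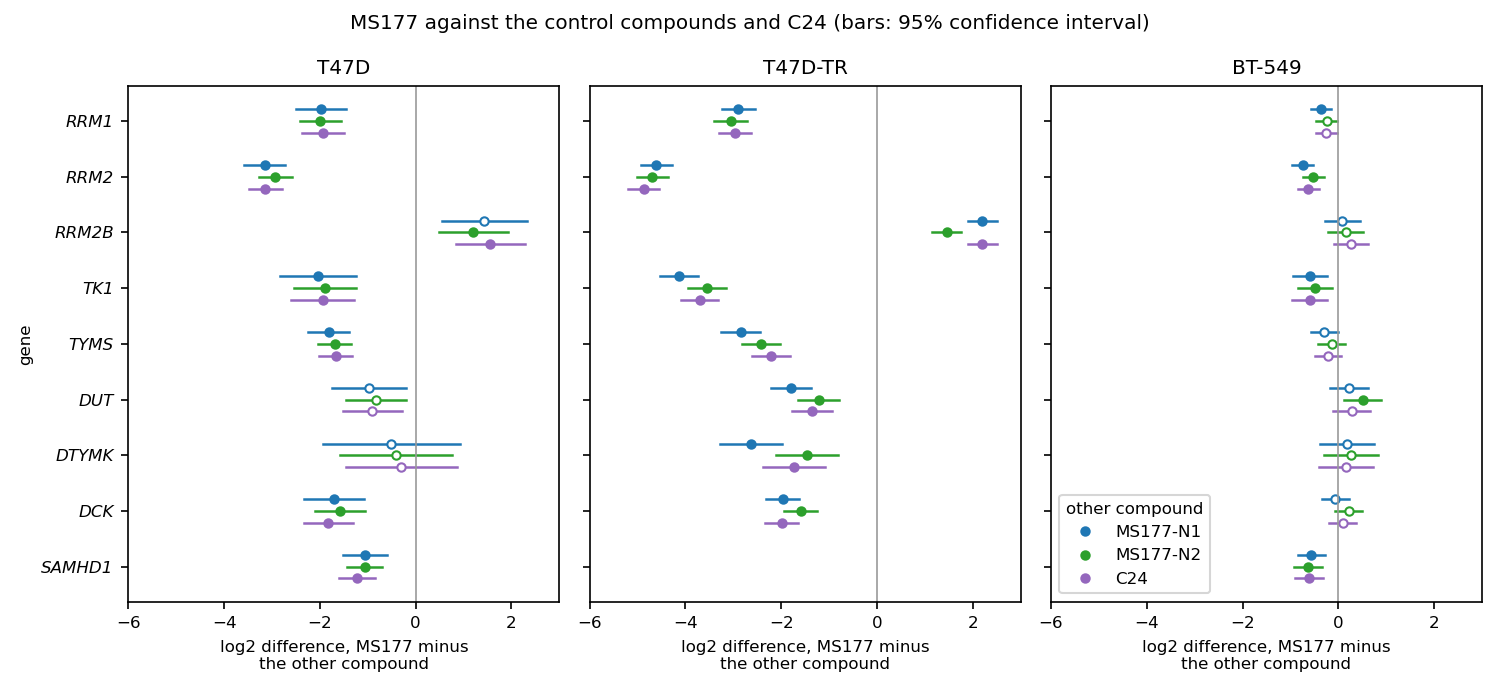
Log2 difference between MS177 and MS177-N1 (blue), MS177-N2 (green) or C24 (purple) for each member in 3 lines, with 95% confidence intervals; filled points passed limma's adjusted threshold, and SAMHD1 in T47D-TR is left out because libraries were listed at 0. The 3 comparisons of a line share the MS177 libraries and lie close together, except in T47D-TR, where DTYMK differs most from MS177-N1 (-2.63) and RRM2B least from MS177-N2 (1.45).

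MS8815, tested in T47D-TR at 30 h, lowered RRM2 and TK1, while RRM1 overlapped with DMSO. The test called 2 of 9 members lower and 0 higher, where 5.19% of 13456 genes were called (2.18% lower and 3.01% higher). RRM2 had 3731 and 3531 normalized counts with DMSO and 974.8 and 1009 with MS8815 (-1.87 ± 0.20, limma adjusted p = 0.0315). TK1 had 3448 and 3301 against 1035 and 914.6 (-1.79 ± 0.20, limma adjusted p = 0.0341). About 27.3% of RRM2 and 28.9% of TK1 was left. RRM1 had 1886 and 2104 against 2055 and 2001 (0.03, 95% confidence interval -0.50 to 0.55), so the catalytic subunit overlapped with DMSO while its S phase partner did not. TYMS had 744.9 and 662.4 against 319.7 and 201.7 (-1.46, limma adjusted p = 0.0623), DUT 1197 and 1063 against 548.1 and 374.9 (-1.31, limma adjusted p = 0.0629), and DCK 553.9 and 511.8 against 297.0 and 287.0 (-0.86, limma adjusted p = 0.0752). None of these 3 passed. RRM2B had 876.9 and 820.6 against 808.1 and 1243 (0.24, interval -0.49 to 0.97) and overlapped. Per kilobase RRM2B was 0.175 and 0.173 of RRM2 with DMSO and 0.618 and 0.917 with MS8815. The 2 calls were lost without either DMSO library (RRM2 differences of -1.83 without replicate 3 and -1.91 without replicate 4). Fits without 1 MS8815 library take their spread from the DMSO pair alone, so their calls are no result about the members. Against MS8815-N and EPZ-6438 directly, limma called 0 of 9 members (0.0574% and 0.108% of genes). An unadjusted p under 0.05 was reached by 4 and 5 members, beside 1862 and 1156 of 13934 genes. RRM2 stood at -1.38 (limma adjusted p = 0.139) and -1.87 (limma adjusted p = 0.0904). That spread includes MS8815-N replicate 2: without it, RRM2, TK1 and TYMS were called against EPZ-6438 (limma adjusted p = 0.0179, 0.0183 and 0.0406). RRM2 and TK1 also passed against EPZ-6438 on the deposited log2 scale (limma adjusted p = 0.0284 and 0.0341) and with the length trend removed (0.0229 and 0.0154). Marker levels moved as well: the 10 luminal markers summed to 128618 to 144887 normalized counts with MS8815 against 206204 to 222759 with DMSO (1 lower and 0 higher of 10, median -0.86), and the mesenchymal markers to 484 to 904 against 263 to 274, with AXL, ZEB1 and ZEB2 not listed, and the part of this in the results was not tested. MS177 and MS8815 were given for different times, so their values stand side by side: RRM1 differed from DMSO by -3.16 at 48 h with MS177 and by 0.03 at 30 h with MS8815.

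SAMHD1 was the lowest member in T47D-TR and varied more than the other members. At 48 h it was listed at 0 in both libraries of MS177 and of MS177-N1. It was among 7 and 5 of 10080 genes at 0 in the MS177 libraries that had at least 100 normalized counts with DMSO. With MS177-N1 such genes were 5 and 5 of 9801, SAMHD1 among them. SAMHD1 had 186.6 and 45.8 normalized counts with C24 and 130.3 and 196.8 with MS177-N2. At 30 h it had 49.0 and 13.4 with MS8815, 92.5 and 0 with EPZ-6438, and 16.8 and 178.4 with MS8815-N. Libraries of 1 group thus differed by more than most of the groups did. The authors' scaling also moved this gene: the same 30 h DMSO libraries were listed at 24.5 and 38.4 in the table of MS8815, at 54.4 and 85.6 in that of EPZ-6438 and at 17.3 and 27.7 in that of MS8815-N. In T47D and BT-549, where SAMHD1 had 1845 to 2327 normalized counts with DMSO, no library was at 0. The exons of SAMHD1 (chr20:36889773-36951901, minus strand, GRCh38, GENCODE 29) overlap those of TLDC2 on the opposite strand. RRM1, RRM2, TYMS, DUT and DCK also overlap exons of other genes (RRM1-AS1, AC007240.1, ENOSF1 and TYMSOS, AC023355.1 and MOB1B), and no source used here states whether counting used the strand, so reads could be shared there.

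Across all 37 libraries, each set against the DMSO mean of its line and time, RRM2 varied with TK1 at Pearson r = 0.961, with DCK at 0.949, with TYMS at 0.916 and with RRM1 at 0.910, and with RRM2B at -0.828. SAMHD1 followed RRM2 less closely (0.472). These values describe 37 libraries that share DMSO controls and in which the MS177 groups lie far from the rest. The 5 genes most like RRM2 among 10655 were ZWINT (0.991), ASF1B (0.988), MCM3 (0.987), TCF19 (0.986) and KIFC1 (0.984). For SAMHD1 they were TMEM94 (0.853), SLC10A3 (0.829), PLEKHA1 (0.798), HP1BP3 (0.795) and ENTPD4 (0.784). The SAMHD1 correlations, that with RRM2 included, depend on the pseudocount, since T47D-TR libraries listed at 0 enter them. Both libraries of MS177 and of MS177-N1 stood at -7.27 for SAMHD1, and EPZ-6438 replicate 2 at -4.99. DTYMK, the shortest member, stood apart from the S phase members (0.498 with RRM2). In libraries outside the degrader groups it was high where short transcripts were high: its 4 highest differences from DMSO, all in T47D-TR, were in MS177-N1, EPZ-6438 and MS8815-N libraries with length trends of -0.62 to -0.91.

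**Figure D4:**
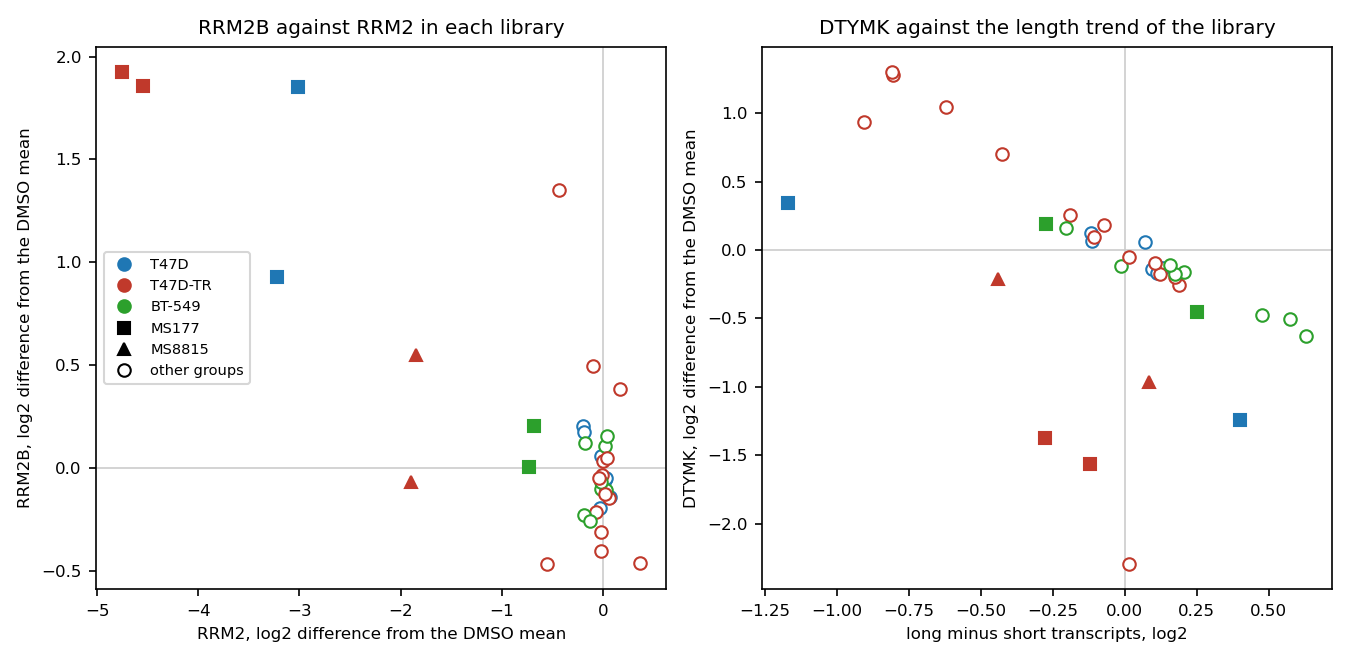
Left, the log2 difference of RRM2B from the DMSO mean against that of RRM2, 1 point per library; right, the difference of DTYMK against the library's length trend (long minus short transcripts, log2). MS177 libraries of T47D and T47D-TR hold the upper left of the first panel, and open points of the second run from short-transcript-rich libraries with high DTYMK to long-transcript-rich libraries with low DTYMK, apart from MS8815-N replicate 2 at the bottom.

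Other genes of nucleotide supply were described by lists, with the same test. In T47D-TR, all 13 listed genes of the replication fork were called lower with MS177 (median -2.98). The list holds polymerases, which use dNTPs, and other fork genes. POLD1, the catalytic subunit of polymerase delta, led, at 429 to 472 normalized counts with DMSO and 29.6 to 32.5 with MS177 (-3.82 ± 0.20, limma adjusted p = 4.49e-05). All 10 proliferation and S phase markers fell (median -3.02; E2F2 at -4.59). The folate cycle that feeds TYMS split, with 3 of 12 higher and 7 lower (median -0.63). SHMT1, the cytosolic serine hydroxymethyltransferase, fell by 2.55, while MTHFD1L of the mitochondrial branch rose (2.26 ± 0.18). Purine ring synthesis had 1 of 13 higher and 7 lower (median -0.38) and pyrimidine ring synthesis 0 of 5 higher and 3 lower (median -0.72). These shares are to be read against 54.6% of all genes called (27.6% higher and 26.9% lower). Of 16 other genes of salvage and pool cleaning, 4 were higher and 8 lower (median -0.78). TK2, the mitochondrial thymidine kinase, went from 333 to 377 down to 18.7 to 27.8 (-3.90 ± 0.26), a fall of the same order as that of TK1, while the phosphorylases UPP1 and TYMP, which split uridine and thymidine, rose by 2.26 and 2.23. Among 11 nucleotide kinases and reductants of ribonucleotide reductase, 2 were higher and 3 lower (median -0.03). Of 10 p53 target genes beside RRM2B, 6 were higher and 1 lower (median 1.14), with CDKN1A, the cell-cycle inhibitor p21, at 1338 to 1431 with DMSO and 10831 to 11254 with MS177 (2.99 ± 0.10, limma adjusted p = 2.22e-05). All 8 genes that regulate the RRM2 and SAMHD1 proteins fell (median -2.21), with CDK1, the kinase that phosphorylates SAMHD1, at -3.23.

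The same lists moved less evenly in BT-549 and with MS8815. In BT-549, MS177 called 1 of 13 fork genes lower (LIG1, -0.60) and 6 of 10 proliferation markers lower (median -0.72). Of all genes, 24% were called, 12.6% lower and 11.5% higher. The folate cycle had 4 of 12 higher and 2 lower (median 0.29), with the mitochondrial enzymes MTHFD2 (3799 to 3877 against 12747 to 12828; 1.74 ± 0.10), SHMT2 (1.38) and MTHFD1L (1.19) at the top. TK2 again fell far, from 1006 to 1008 down to 73.6 to 101.9 (-3.53 ± 0.19, limma adjusted p = 0.00149), in a line where TK1 differed by -0.72. Of 17 salvage genes 3 were higher and 2 lower, UPP1 (1.80) and NT5E, an ecto-nucleotidase, (1.62) among the higher. Of 10 p53 target genes 2 were higher and 1 lower: BBC3 (2.10), CDKN1A (0.81) and ZMAT3 (-0.67). Purine ring synthesis had 4 of 15 higher and 1 lower, pyrimidine ring synthesis 0 of 5 either way, the kinases and reductants 1 of 11 higher and 2 lower, and the regulators 5 of 8 lower. With MS8815, 5 of 10 proliferation markers and 2 of 13 fork genes (POLA1 and GINS2) were lower. Of all genes, 5.19% were called, 2.18% lower and 3.01% higher. Its salvage list had UPP1 higher, at 607 to 839 against 36.2 to 47 (4.08 ± 0.29, limma adjusted p = 0.019), and SLC29A1, a nucleoside transporter, lower (-1.32), of 16. CAD (1 of 5; -1.25), the first enzyme of pyrimidine synthesis, was lower, GLRX of the reductants was higher (1 of 11; 2.68), CDKN1A was the 1 of 10 p53 targets called (1.48), CCNF, which targets RRM2 protein for degradation, the 1 of 8 regulators (-1.86), and 0 of 13 purine genes passed. In T47D no list had a gene called with MS177, and the medians were -2.09 for the fork, -2.32 for proliferation and 1.27 for the p53 targets.

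**Figure D5:**
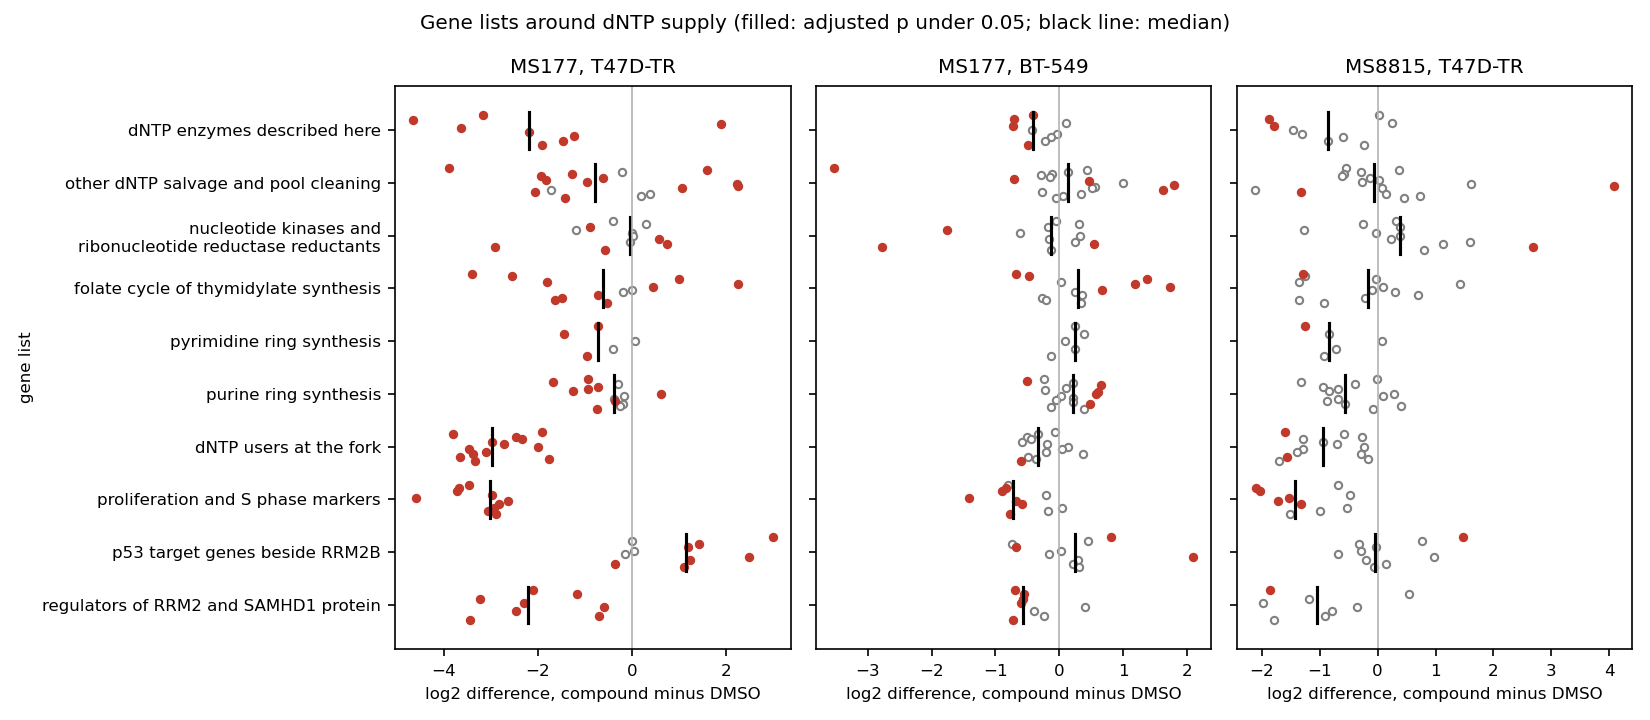
Log2 differences from DMSO for the 9 enzymes and 9 other gene lists, 1 point per tested gene, with the median as a black line. Points are filled where limma's adjusted p was under 0.05. SAMHD1 is not drawn with MS177 in T47D-TR, where it was listed at 0. The line of the enzymes there includes it (-2.20), while the 8 drawn have a median of -2.06. In the MS177 panel of T47D-TR, fork, proliferation and regulator genes lie wholly under 0, and salvage and folate genes on both sides. The list labelled dNTP users at the fork also holds fork genes whose products use no dNTPs.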

How the data were processed

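Polyadenylated RNA of 3 cell lines was sequenced. The authors deposited 15 tables of variance-stabilized log2 values, 4 columns each, and per the submitters' processing notes used RSEM, DESeq and hg38 (versions and strand use are not given in the sources used here). The transform was undone within each table to give normalized counts. Whole multiples of 1 read were found in T47D and BT-549 tables and not in T47D-TR tables, so T47D-TR precision is known only from the replicates. Tests used limma 3.58.1 (R 4.3.3; mean trend, robust, two-sided) on log2(normalized count + 1), on genes that reached 10 normalized counts in 2 or more libraries, with Benjamini-Hochberg adjustment over all tested genes of a comparison and a threshold of 0.05. Differences understate the change of low genes. There were 15 comparisons with DMSO, each within its table, 11 between compounds, fitted over all libraries of a line and time after tables were joined through their shared DMSO libraries, and 3 of the MS177 response between lines. Scripts were tested on simulated data. Errors printed after ± are standard errors. The members and gene lists were chosen with earlier results of these data known. From each list, up to 3 genes with the largest called difference per comparison were named; 1 gene of the folate list is not reported here. Levels per kb use 1 transcript length per gene. Alternatives were the deposited scale, a pseudocount of 8, no filter, no mean trend, other sets of libraries, a replicate block, quantile normalization, limma voom and leaving out each library, and, chosen after seeing the data, removal of the length trend.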

Additional observations from a re-analysis of the deposited data

Results flagged for a closer look

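The MS177 response differed between lines by the interaction test in 18 member comparisons, given here as the response in the first line minus that in the second, on the log2 scale. In T47D-TR against T47D these were RRM1 (-1.19), RRM2 (-1.53), TK1 (-1.63) and SAMHD1 (-6.22). In T47D-TR against BT-549 they were RRM1 (-2.76), RRM2 (-3.95), RRM2B (1.79), TK1 (-2.93), TYMS (-1.76), DUT (-1.21), DCK (-1.71) and SAMHD1 (-6.79). In T47D against BT-549 they were RRM1 (-1.57), RRM2 (-2.42), RRM2B (1.29), TK1 (-1.30), TYMS (-1.27) and DCK (-1.45). Both SAMHD1 values rest on T47D-TR libraries listed at 0 and depend on the pseudocount, so they are no measure of size. The T47D values rest on 2 MS177 libraries that differ in their length trend (-1.17 and 0.40), and with that trend removed each of the 18 stayed past the threshold. With only the DMSO and MS177 libraries of the 2 lines, calls that involve T47D were lost. Against T47D-TR these were RRM1, RRM2 and TK1 (limma adjusted p = 0.195, 0.112 and 0.218). Against BT-549 they were DCK, RRM2B, TK1 and TYMS (limma adjusted p = 0.079, 0.22, 0.189 and 0.0579).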

How the results depend on the processing

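The number of the 9 members called, SAMHD1 included, was within 1.5 times the reported number in 200 settings other than leaving out a library and outside that range in 27. Most of these counts come without the share of all genes called in the same setting, so they describe the processing. With all libraries of the line and time it was 7 (from 0) for MS177 against DMSO in T47D, 1 (from 4) for MS177-N1 in T47D-TR and 0 (from 2) for MS8815. With only the groups compared it was 0 for MS177 against C24, MS177-N2 and MS177-N1 in T47D (from 7, 7 and 6) and 1 (from 4) for MS177 against MS177-N1 in BT-549. With only the DMSO and MS177 libraries of the 2 lines it was 1 (from 4) for T47D-TR against T47D and 2 (from 6) for T47D against BT-549. Without the mean trend it was 1 (from 4) for MS177-N1 in T47D-TR, 1 (from 4) for MS177 in BT-549, 2 (from 4) for MS177 against MS177-N2 in BT-549 and 1 (from 2) for MS8815. With the length trend removed it was 5 (from 0) for MS177 in T47D, 2 (from 4) for MS177-N1 in T47D-TR, 2 (from 0) for MS177-N2 in BT-549, 6 (from 3) for MS177 against C24 in BT-549, 4 (from 2) for MS8815, 1 (from 0) for MS8815 against MS8815-N and 2 (from 0) for MS8815 against EPZ-6438. Quantile normalization gave 1 (from 0) for MS8815 against MS8815-N and against EPZ-6438, and the deposited scale 2 for the latter.

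Replicate numbers share only a number: deviations of same-numbered libraries correlated at -0.731 to 0.705 in BT-549, -0.386 to 0.133 in T47D, -0.552 to 0.442 in T47D-TR at 48 h and -0.537 to 0.105 at 30 h. With a replicate block the count was 4 (from 0) for MS177 in T47D, where all genes called rose from 0 to 925, 2 (from 4) for MS177 and 2 (from 0) for MS177-N1 in BT-549, and 2 (from 4) for MS177 against MS177-N2 in BT-549. No block was possible against DMSO at 30 h, whose replicates are numbered 3 and 4.

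Leaving out 1 library at a time, the count of members ran from 0 to 9 for MS177, 0 to 2 for MS177-N2 and 0 to 2 for C24 in T47D, from 8 to 9 for MS177 against MS177-N1 and 1 to 9 against MS177-N2 and C24 in T47D, from 0 to 4 for MS177-N1 in T47D-TR, from 1 to 3 for MS177 and 0 to 2 for MS177-N2 in BT-549, and from 2 to 3 for MS177 against MS177-N1, MS177-N2 and C24 there. At 30 h it ran from 0 to 7 for MS8815, 0 to 8 for MS8815-N, 0 to 4 for EPZ-6438, 0 to 6 for MS8815 against MS8815-N and 0 to 3 against EPZ-6438, and between lines from 4 to 8 (T47D-TR against T47D). With MS177 in T47D-TR it ran from 8 to 9, since SAMHD1 failed the filter on low values without either DMSO library. A lone sample was assumed to vary like the other groups. The share of all genes called in these settings is not given here, so the counts are no result about the members. DTYMK changed sign with MS177 in T47D (-1.24 to 0.35 against DMSO, -1.20 to 0.38 against MS177-N2, -1.09 to 0.50 against C24), and DTYMK (-2.28 to 0.93), DUT (-0.71 to 0.53) and RRM2B (-0.47 to 1.35) with MS8815-N against DMSO. The cause of these changes was not tested. The unknown depth of T47D-TR limits what can be said of SAMHD1, whose values of 0 carry no count behind them.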
